A study of Mus musculus with 2 samples.

Results

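The genes described here are *Hif1a*, which encodes the oxygen-regulated subunit of hypoxia-inducible factor 1 (HIF-1), and 9 genes that low oxygen induces and that lie outside glycolysis, namely *Egln1*, *Egln3*, *Slc2a1*, *Pdk1*, *Bnip3*, *Vegfa*, *Ero1a*, *Ndrg1* and *Ankrd37*. They were chosen by gene symbol, and all 10 were measured, by 27 of the 34958 probe sets that carry a single symbol, among 18194 named genes. A probe set is a group of short probes on the array that together report 1 transcript region. Total RNA was hybridized to 1 Affymetrix mouse array of G9a-KO ESCs and to 1 array of WT ESCs. G9a is the histone methyltransferase encoded by *Ehmt2*, and the G9a-KO cells are a derivative of the TT2 line that lacks exons 26 and 27 of this gene after conditional targeting and is called G9a-/- in the study. The WT cells are TT2 itself, whose F1 embryo had a CBA sire and a C57BL/6 dam. Each genotype is thus represented by 1 line, and the Cre driver of the deletion was not stated. Per the labels, 4-hydroxytamoxifen at 800 nM was given for 48 h to delete the allele and RNA was taken 48 h after its removal. This text stands with both samples and does not say whether WT cells were treated. Both samples share a medium with leukemia inhibitory factor, in which the labels put serum replacement with a little calf serum and the methods put serum. G9a-KO ESCs grew on inactivated embryonic fibroblasts, whereas a feeder for TT2 and the oxygen level of the cultures were not stated.

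HIF-1 is a pair of proteins that switches on genes for life at low oxygen. When oxygen is present, prolyl hydroxylases of the EGLN family mark the HIF-1A protein, the VHL ubiquitin ligase recognises the mark, and the protein is destroyed. When oxygen is scarce HIF-1A persists, joins ARNT and binds DNA at a short core sequence near its targets, which include the EGLN genes themselves and therefore form a feedback loop. Regulation of HIF-1A thus lies largely in the stability of the protein, which an RNA array does not measure. HIF-2A (gene *Epas1*) acts in a similar way on an overlapping set of genes, and several of the targets also answer to other stresses.

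To show the DNA next to the start of these genes, RefSeq promoter windows (build GRCm38.p6, 250 bases before and 50 after a start) were searched for the HIF core, spelled ACGTG or GCGTG, on both strands. The table held 11 windows of 9 of the 10 members, of which 9 windows, 1 for each gene, had the core, whereas 43.8% of all 32851 windows did. For *Vegfa* the window with the core lay inside the gene, and the window at the 5′ end of the gene had none. The core on its own is therefore common, and a match describes letters and not a bound site. The windows of *Ero1a* (chr14:45318523-45318822) and *Egln3* (chr12:54203825-54204124), genes with a higher level in G9a-KO ESCs, are set beside those of *Bnip3* (chr7:138909457-138909756) and *Ankrd37* (chr8:45999801-46000100), which differed little. All 4 lie on the minus strand and are written 5′ to 3′ in the direction of transcription, with each core in capitals.
Ero1a: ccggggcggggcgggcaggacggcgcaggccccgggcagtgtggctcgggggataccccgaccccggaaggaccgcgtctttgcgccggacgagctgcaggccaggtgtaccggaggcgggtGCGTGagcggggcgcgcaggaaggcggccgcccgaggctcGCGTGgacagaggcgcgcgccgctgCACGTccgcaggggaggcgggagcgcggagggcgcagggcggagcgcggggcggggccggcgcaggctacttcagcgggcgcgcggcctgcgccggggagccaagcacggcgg
Egln3: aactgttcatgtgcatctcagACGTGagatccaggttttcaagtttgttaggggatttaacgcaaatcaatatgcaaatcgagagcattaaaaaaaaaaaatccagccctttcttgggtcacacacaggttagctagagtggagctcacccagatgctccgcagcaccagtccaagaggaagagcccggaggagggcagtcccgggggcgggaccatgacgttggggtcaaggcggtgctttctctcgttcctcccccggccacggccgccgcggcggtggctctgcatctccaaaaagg
Bnip3: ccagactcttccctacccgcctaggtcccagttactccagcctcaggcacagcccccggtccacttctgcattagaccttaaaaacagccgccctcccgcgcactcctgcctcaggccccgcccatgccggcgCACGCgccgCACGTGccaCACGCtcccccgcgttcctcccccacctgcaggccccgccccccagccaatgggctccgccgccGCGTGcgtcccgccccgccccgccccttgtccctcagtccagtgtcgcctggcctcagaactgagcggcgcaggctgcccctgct
Ankrd37: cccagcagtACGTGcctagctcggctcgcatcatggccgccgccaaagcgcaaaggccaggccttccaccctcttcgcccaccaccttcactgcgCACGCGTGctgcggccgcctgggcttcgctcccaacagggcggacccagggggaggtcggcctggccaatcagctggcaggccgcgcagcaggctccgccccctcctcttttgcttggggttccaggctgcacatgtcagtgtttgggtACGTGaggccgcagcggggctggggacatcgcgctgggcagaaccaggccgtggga

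Among the 9 members with a window, which leaves out *Ndrg1*, more matches did not go with a larger difference between the arrays. The windows of *Bnip3* and *Ankrd37* held 5 and 4 matches, and those of *Ero1a* and *Egln3* held 3 and 1. *Hif1a* itself had 3 matches, and *Egln1* and *Slc2a1* had 2 each. *Pdk1* had 2 in the window at the 5′ end of the gene and 0 in a window further in. *Vegfa* had 0 in the window at its 5′ end (chr17:46032328-46032627) and 2 in a window inside the gene (chr17:46025114-46025413). The core overlaps the E-box CACGTG, the binding motif of MAX, which counts as a match on each strand. An E-box stood in the windows of *Hif1a* and *Bnip3* and in 7.15% of all windows.

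Levels are log2 values from which the 75th percentile of the same array was subtracted, so that a positive level lies above that percentile, and each difference is G9a-KO minus WT. The median of all probe sets lay at -2.13 in G9a-KO and -2.24 in WT. A gene is represented by its brightest probe set, that of the highest mean level, unless another is named. It was counted as higher or lower when it passed 1.3-fold, the threshold of the study for this pair, which is 0.38 on the log2 scale. With 1 array per group there was no replicate spread and no test, so none of the differences can be set against the variation between cultures. In this bulk RNA, fewer cells of a type and less RNA per cell cannot be told apart. The 18 probe sets of the spike-in controls (BioB, BioC, BioD and Cre) ranged from -0.16 to 0.21. Such controls show only part of the technical spread and none of that between cultures. The targeted gene *Ehmt2* was at 0.51 in G9a-KO and 2.05 in WT by its brighter probe set and at -2.07 in G9a-KO and -2.27 in WT by the other (0.20), and the position of either relative to the deleted exons was not stated. The pluripotency markers *Pou5f1* (4.45 in G9a-KO and 4.91 in WT), *Sox2* (4.56 in G9a-KO and 4.71 in WT) and *Nanog* (4.31 in G9a-KO and 4.10 in WT) were far above the median on both arrays. *Pou5f1* was nonetheless 1.37-fold lower in G9a-KO.

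By the brightest probe sets, *Hif1a* had nearly the same level on both arrays, while its targets were either higher in G9a-KO ESCs or within 1.3-fold. *Ero1a* (3.82-fold), *Vegfa* (3.25-fold), *Ndrg1* (3.08-fold), *Egln3* (1.65-fold) and *Egln1* (1.40-fold) were higher. *Slc2a1*, *Bnip3*, *Ankrd37* and *Pdk1* stayed within 1.3-fold. Other probe sets passed it upward for *Slc2a1* and in both directions for *Pdk1* (-0.57 and 2.49), so the direction of *Pdk1* is unresolved. Of the 9 targets, 5 were thus higher and 0 were lower at 1.3-fold, against 17.4% of all named genes higher and 17.2% lower, and 3 were higher and 0 lower at 2-fold, against 4.61% and 3.76%. The median difference of the 9 targets was 0.49, and that of all named genes was 0.036. Genes that share a regulator are not independent of each other, and neither the counts nor the median were tested.

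**Figure D1:**
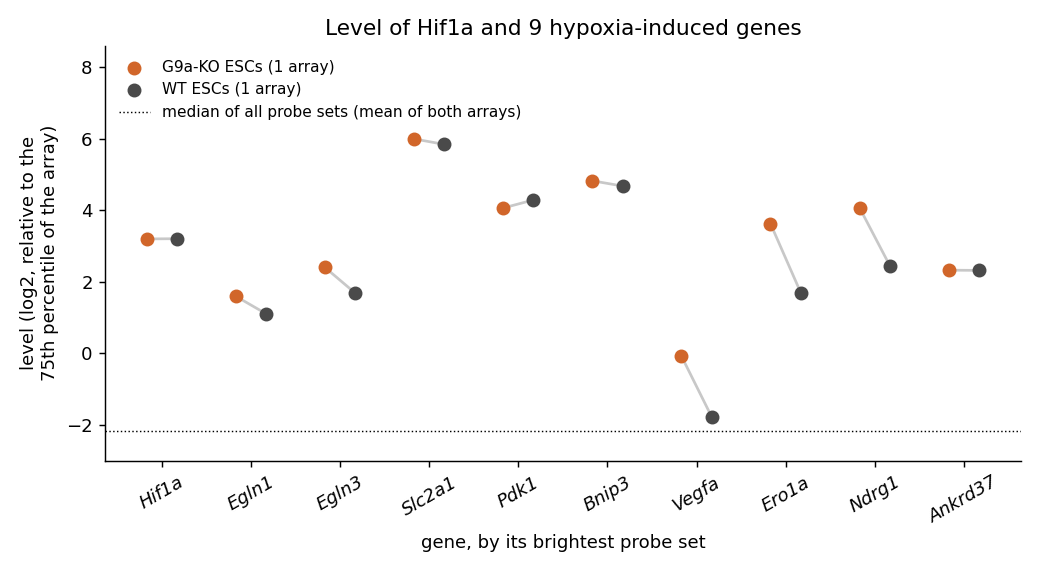
Level of *Hif1a* and 9 hypoxia-induced genes (vertical axis, log2 minus the 75th percentile of that array) in G9a-KO (orange) and WT (dark grey), 1 point per array and gene, each by its brightest probe set and joined by a line, with the median of all probe sets dotted. *Ero1a*, *Vegfa* and *Ndrg1* have the steepest lines, and *Hif1a* and *Ankrd37* are nearly level.

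*Hif1a*, the regulated subunit, was at 3.20 in G9a-KO ESCs and 3.21 in WT ESCs by its brightest probe set, a difference of -0.0060. This value is close to the middle of all genes, since 54.1% of them had a difference at least as high. A second bright probe set gave 0.39 in G9a-KO and 0.51 in WT (-0.13). The remaining probe sets were dim and ran the other way. One was slightly above the median on both arrays (-1.68 in G9a-KO and -2.04 in WT, 0.36), and the other lay below it on both (-2.43 in G9a-KO and -2.94 in WT, 0.52). Only the last of these 4 probe sets passed 1.3-fold, and it was the dimmest.

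*Egln1* and *Egln3*, oxygen sensors that are both brakes on HIF-1A and targets of it, were higher in G9a-KO, whereas the related *Egln2* was lower (-0.62). *Egln1* encodes the main HIF prolyl hydroxylase, PHD2, and was at 1.59 in G9a-KO ESCs and 1.10 in WT ESCs, a difference of 0.49. Its other probe set gave a larger difference, with 1.42 in G9a-KO and 0.60 in WT (0.83, 1.77-fold). *Egln3*, which encodes PHD3, was at 2.40 in G9a-KO and 1.68 in WT, a difference of 0.72 that 7.65% of all genes matched or exceeded. Its second probe set was dimmer, at 0.16 in G9a-KO and -0.39 in WT (0.54). All 4 probe sets of these genes therefore passed 1.3-fold in the same direction, whereas none of them reached 2-fold.

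*Slc2a1* and *Pdk1*, which act in fuel use, stayed within 1.3-fold by their brightest probe sets, and their other probe sets did not all do so. *Slc2a1* encodes the glucose transporter GLUT1 and was bright on both arrays, at 6.00 in G9a-KO ESCs and 5.84 in WT ESCs (0.15). Another of its probe sets gave 5.90 in G9a-KO and 5.71 in WT (0.19), and the third gave 4.29 in G9a-KO and 3.89 in WT, which at 1.32-fold just passed the threshold. All 3 differences were positive, and those of the brighter pair lay within the range of the spiked-in controls. *Pdk1* encodes a kinase that blocks pyruvate dehydrogenase and so keeps pyruvate out of the mitochondrial citric acid cycle. It was at 4.07 in G9a-KO and 4.29 in WT, a difference of -0.23 and the lowest of the 10 members. A second bright probe set gave 3.55 in G9a-KO and 3.79 in WT (-0.24), and a further one gave 2.16 in G9a-KO and 2.73 in WT, which was 1.48-fold lower.

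The probe sets of *Pdk1* did not all run the same way. The dimmest was above the array median only in G9a-KO, at -1.10 in G9a-KO and -3.59 in WT, a difference of 2.49. This is the largest difference of any of the 27 probe sets, and it is opposite in sign to the other 3 of the same gene. Which isoform each probe set reads was not stated. *Bnip3*, whose protein directs mitochondria to autophagy, has a single probe set, which gave 4.83 in G9a-KO ESCs and 4.68 in WT ESCs (0.15, 1.11-fold).

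The remaining targets held the largest differences of the group. *Ero1a* encodes an oxidase of the endoplasmic reticulum (ER) that restores protein disulfide isomerase so that disulfide bonds can form in secreted proteins. It was at 3.63 in G9a-KO ESCs and 1.70 in WT ESCs, a difference of 1.93, and 1.21% of all genes had one at least as high. Its other probe sets gave 3.63 in G9a-KO and 1.35 in WT (2.27, 4.84-fold) and 2.12 in G9a-KO and -0.086 in WT (2.20, 4.60-fold). All 3 probe sets passed 2-fold, and their differences lay within a narrow range.

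*Ndrg1* encodes a cytoplasmic protein that responds to hypoxia, metals and differentiation. Its brightest probe set was at 4.07 in G9a-KO ESCs and 2.45 in WT ESCs, a difference of 1.62. This probe set has the _x_at ending of those that may bind other transcripts, but the other 4 ran the same way, with differences between 1.02 and 1.80. The one among them with a plain _at ending and the higher level gave 2.00 in G9a-KO and 0.54 in WT (2.75-fold). *Vegfa*, the main growth factor of blood vessels, was dim, at -0.073 in G9a-KO and -1.77 in WT, a difference of 1.70. Its other probe set gave -0.95 in G9a-KO and -1.64 in WT, and the difference was then 0.69 (1.62-fold). Both put *Vegfa* in WT only a little above the median of all probe sets, and its fold differed with the probe set. *Ankrd37*, an ankyrin repeat gene and HIF-1 target, was at 2.33 in G9a-KO and 2.32 in WT by its single probe set, a difference of 0.0062.

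**Figure D2:**
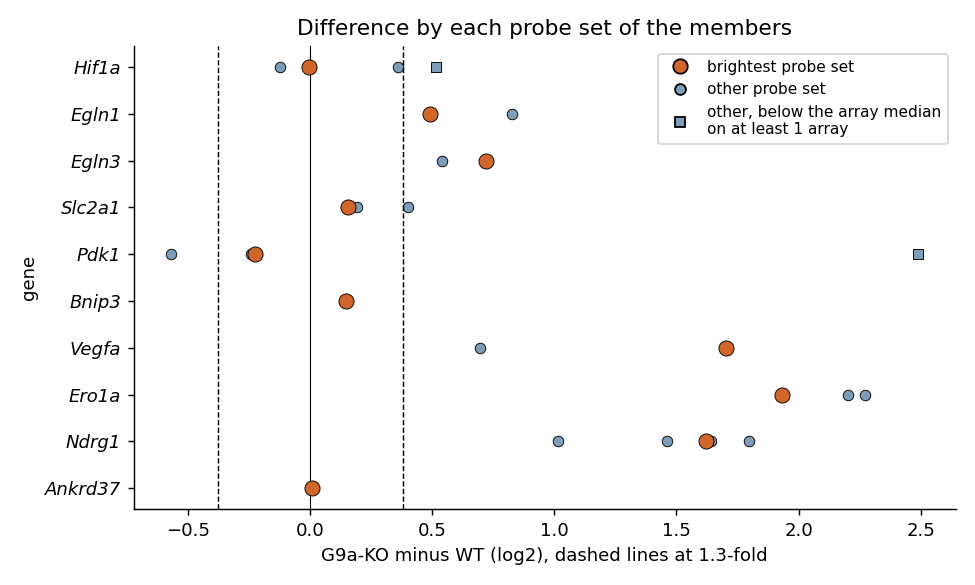
G9a-KO minus WT (log2, horizontal axis) for each of the 27 probe sets of the 10 members (rows), with the brightest probe set of a gene in orange, the others in blue, squares for those below the median on at least 1 array and dashed lines at 1.3-fold. Every probe set of *Egln1*, *Egln3*, *Ero1a*, *Ndrg1* and *Vegfa* lies right of the upper dashed line, whereas *Pdk1* spreads from -0.57 to 2.49.

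Set against *Hif1a*, 8 of the 9 targets had a higher difference, 5 of them by more than 1.3-fold. The difference of *Hif1a* was 0.50 below the median of its targets. *Ero1a* exceeded it by 1.94, *Vegfa* by 1.71, *Ndrg1* by 1.63, *Egln3* by 0.73 and *Egln1* by 0.50. *Slc2a1* (0.16), *Bnip3* (0.15) and *Ankrd37* (0.012) exceeded it by less than the 1.3-fold threshold, and *Pdk1* lay 0.22 below it (-0.22). Over probe sets, 16 of the 23 of the targets were higher past 1.3-fold, 1 was lower and 6 were within it, while 17.9% of all 34958 single-symbol probe sets were higher and 15.4% lower. Probe sets of 1 gene are not independent of each other. When a single probe set past 1.3-fold was enough, which is the rule of the study, 8 of the 10 members counted as higher, *Hif1a* and *Pdk1* among them, and 1 (*Pdk1* again) as lower. By that rule 24.6% of all genes were higher and 22.0% lower.

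**Figure D3:**
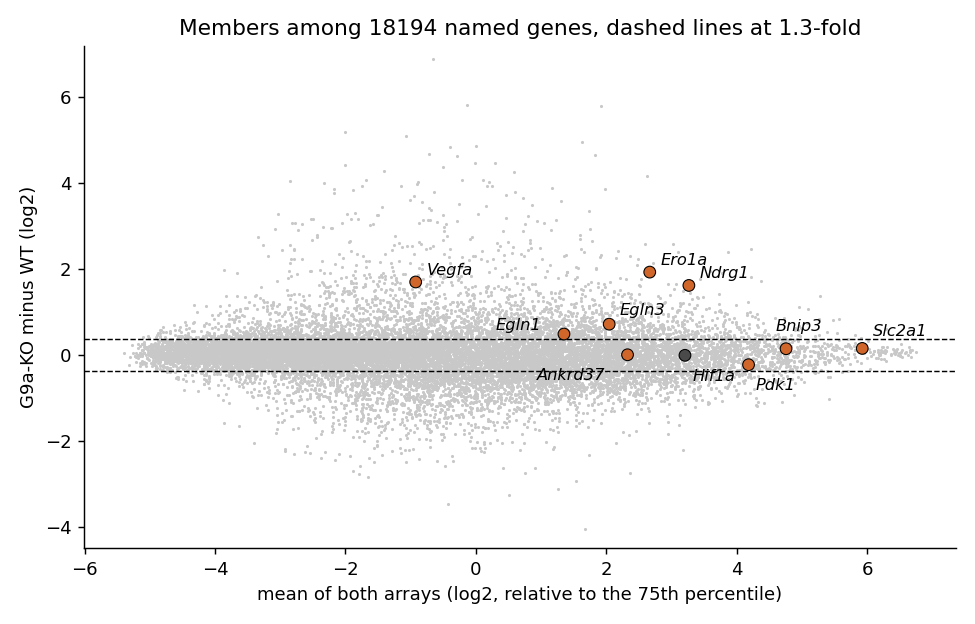
G9a-KO minus WT (vertical axis, log2) plotted on the mean level of both arrays (horizontal axis, log2 minus the 75th percentile) for 18194 named genes (light grey), with the 9 targets in orange, *Hif1a* in dark grey and dashed lines at 1.3-fold. *Ero1a* (1.93) and *Ndrg1* (1.62) lie above the upper dashed line, with some genes of similar level higher still, such as *Lamb1* (4.16). *Hif1a* (-0.0060) lies in the dense centre.

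The machinery that acts on HIF-1A did not move in one direction. Of 25 genes listed as HIF subunits, hydroxylases, ligase components, coactivators and their regulators, 5 were higher, 8 were lower and 12 were within 1.3-fold, with a median of -0.0060. The list holds *Hif1a*, *Egln1* and *Egln3*, and without them 3 of 22 were higher and 8 were lower, with a median of -0.15. Of all named genes, 17.4% were higher and 17.2% lower. The count of higher regulators was thus near the share of all genes, and that of lower regulators was above it. Neither count was tested. *Cited2*, which competes with HIF-1A for the coactivator p300, was at 2.62 in G9a-KO ESCs and 0.92 in WT ESCs (1.70). *Siah2*, a ubiquitin ligase that targets prolyl hydroxylases, was at 0.67 in G9a-KO and -0.72 in WT (1.40). *Hif1an*, the asparagine hydroxylase that blocks coactivator binding to HIF-1A, was 1.98-fold lower, at -0.30 in G9a-KO and 0.69 in WT. *Egln2*, the prolyl hydroxylase PHD1, was lower as well (1.07 in G9a-KO and 1.69 in WT, -0.62), and so ran opposite to *Egln1* and *Egln3*. *Ep300* (-0.59) and *Crebbp* (-0.50), the coactivators, were also lower.

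For *Arnt* and *Epas1*, both HIF subunits, the direction depended on the probe set. *Arnt2*, an alternative partner subunit, was at -2.89 in G9a-KO ESCs and -1.15 in WT ESCs, and thus below the median in G9a-KO. Its other probe sets were below the median on both arrays and stayed within 1.3-fold (-0.25 and -0.13). *Arnt* itself was 1.33-fold lower by its brightest probe set (1.27 in G9a-KO and 1.69 in WT) and 1.63-fold higher by a dim one. *Epas1* differed by -0.22 by the brightest probe set (2.79 in G9a-KO and 3.01 in WT) and by 0.52 by the other. *Hif3a* differed by 0.14. *Vhl*, the recognition subunit of the ligase, differed by 0.055 (0.38 in G9a-KO and 0.33 in WT), and a dim probe set of it by 0.64.

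Other hypoxia-induced genes also ranged from higher to little changed, and some were lower in G9a-KO. Of 53 listed, 48 were measured, of which 18 were higher, 7 were lower and 23 were within 1.3-fold, and their median was 0.15. Over all named genes 17.4% were higher and 17.2% lower, so lower genes were no more frequent in this list than elsewhere. *Cited2* is among the higher genes of this list too. *P4ha2* was at 2.86 in G9a-KO ESCs and 0.45 in WT ESCs (2.41), and *P4ha1* at 2.57 in G9a-KO and 0.55 in WT (2.02). Both encode collagen prolyl hydroxylases. *Plod2*, a collagen lysyl hydroxylase, was at 2.70 in G9a-KO and 1.18 in WT (1.52). *Ppp1r3c*, a glycogen-targeting phosphatase subunit (1.67), and *Ddit4*, an inhibitor of mTORC1 signalling (1.03), were higher as well.

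The lower genes of this list were *Errfi1* (-0.99), *Pgf* (-0.96), *Adm* (-0.72), *Wsb1* (-0.70), *Ndufa4l2* (-0.66), *Kdm3a* (-0.64) and *Igfbp3* (-0.55), which are named after their values were seen. *Adm*, which encodes the vasodilator peptide adrenomedullin, was at 0.76 in G9a-KO ESCs and 1.48 in WT ESCs. *Kdm3a*, a demethylase of H3K9me2, the mark that G9a places, was at 2.60 in G9a-KO and 3.24 in WT. *Car9*, a carbonic anhydrase often used as a marker of hypoxia, was below the median on both arrays, at -2.98 on each. The mitochondrial genes *Higd1a* (0.10) and *Fam162a* (0.0045) differed about as little as *Bnip3*. Of the glycolytic HIF targets, 8 of the 17 measured were higher and 0 lower (median 0.36), against 17.4% and 17.2% of all named genes. The higher ones included the phosphofructokinase gene *Pfkp* (1.95) and the hexokinase gene *Hk1* (1.10), whereas *Pgk1* (0.13) and *Ldha* (0.020) differed little.

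**Figure D4:**
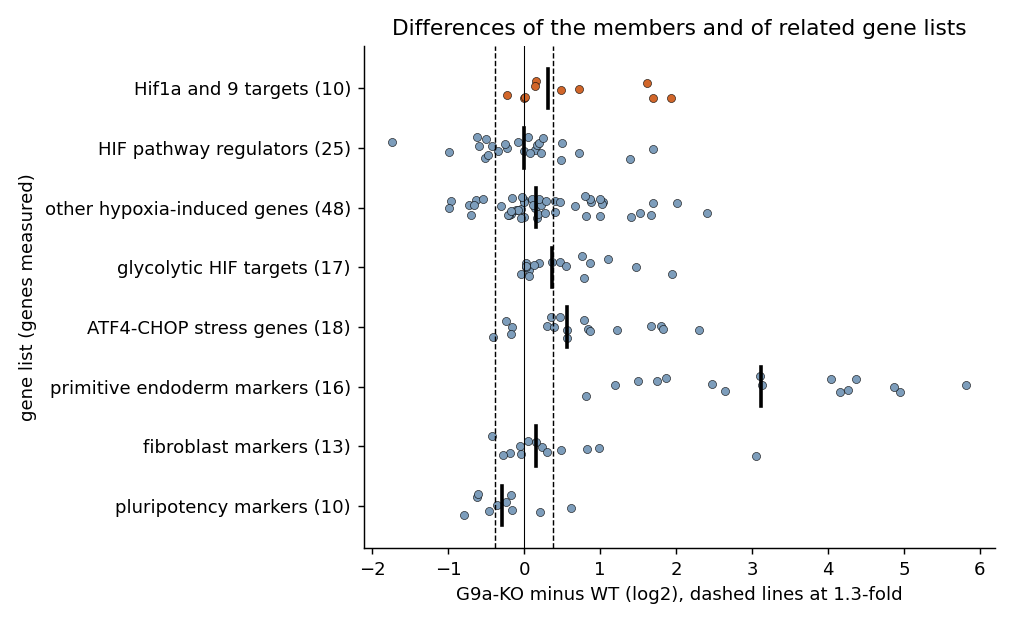
G9a-KO minus WT (log2, horizontal axis) for the genes of 8 lists (rows, with the number measured), 1 point per gene by its brightest probe set, with the median of each list as a black bar and dashed lines at 1.3-fold. The medians are 0.32 for *Hif1a* and its 9 targets, 0.15 for the other hypoxia-induced genes, 0.56 for the ATF4-CHOP genes and 3.12 for the primitive endoderm markers.

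Markers of another cell type and of another stress differed between the same arrays, and their part in the values above was not tested. All 16 markers of primitive endoderm, an early extraembryonic lineage, were higher in G9a-KO, with a median difference of 3.12. Their levels ran from -2.08 to 5.46 (median 1.75) in G9a-KO ESCs and from -3.27 to 2.98 (median -1.98) in WT ESCs, where 6 of the 16 were dimmer than the array median. *Col4a1*, a basement membrane collagen, differed by 4.95 and the lineage regulator *Gata6* by 3.13. *Dab2* (4.37), an endocytic adaptor, and *Cubn* (5.82), a receptor of visceral endoderm, were higher as well. The 13 fibroblast markers measured had a median of 0.16, with 4 higher, 1 lower and a range of levels from -4.55 to 1.08 in G9a-KO and from -4.61 to -1.41 in WT. Of these, 8, including *Col1a1*, *Col3a1*, *Dcn* and *Thy1*, lay below the median on both arrays. The fibrillar collagen gene *Col5a2* was 8.32-fold higher, at 1.08 in G9a-KO and -1.98 in WT, and *Col1a2* was dim and also higher (-1.36 in G9a-KO and -2.19 in WT, 0.83). Of 10 pluripotency markers, 1 was higher (*Dppa5a*, 0.61) and 4 were lower (median -0.29). The lower ones were *Zfp42* (-0.79), *Sall4* (-0.62), *Utf1* (-0.61) and *Pou5f1* (-0.46). At the same fold 17.4% of all named genes were higher and 17.2% lower.

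The ATF4-CHOP arm of the stress response, which answers to amino acid shortage and misfolded protein in the ER, is known to act on *Ero1a* and *Vegfa* too. The median of its 18 listed genes was 0.56, and 12 of them were higher and 1 was lower, against 17.4% and 17.2% of all named genes. *Ddit3*, which encodes CHOP, was at 1.96 in G9a-KO ESCs and 0.15 in WT ESCs (1.81). *Asns* (1.82), *Vldlr* (2.31) and *Nupr1* (1.67) were higher too, while *Atf4* itself differed by -0.16 (4.30 in G9a-KO and 4.46 in WT). The part of this response in the levels of the members was not tested.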

How the data were processed

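The values used were deposited as log2 probe set values, which the authors made with RMA in R 3.2.1 from 1 array per group, per the submitters' processing notes. RMA corrects the background, usually brings arrays to one distribution and summarises probes, so a difference in total RNA per cell is not visible. The deposited 75th percentiles still differed, at 7.31 in G9a-KO and 7.37 in WT. The package was not stated. As in the methods of the study, the 75th percentile of each array was subtracted, and the log2 difference, G9a-KO minus WT, was taken. Probe sets with 1 symbol in GEO's platform annotation were used (34958 of 45101), and the gene IDs of all 10 members gave the same symbol in RefSeq. The probe set of highest mean level stood for a gene. Of other lists, the HIF subunits, prolyl hydroxylases and *Vhl* were named, and up to 6 genes with the largest absolute difference that exceeded the array median in G9a-KO or WT and had all such probe sets in 1 direction. Any further gene was named after its values were seen. The members and lists were chosen with earlier results of these data known. Python 3.11.15, pandas 2.3.3 and statsmodels 0.14.6 were used, and the steps were tested on simulated arrays. With 1 array per group no p-value was computed, and precision is limited by this number. Alternatives covered the scaling, the probe sets kept, the rule for genes with several probe sets and the fold.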

Additional observations from a re-analysis of the deposited data

How the results depend on the processing

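The scaling of the arrays changed no count of the targets past 1.3-fold. Under no shift, median centring, quantile normalization and lowess correction (span 0.3), 5 of the 9 targets were higher than 1.3-fold, and the median of the targets stayed between 0.39 and 0.83 under all 8 alternatives run. Median centring lowers every difference by 0.10 and turned *Ankrd37* to -0.096, and it left *Egln1* barely past 1.3-fold (0.39). Scaling did change counts of the longer lists. With median centring, 15 other hypoxia-induced genes, 7 glycolytic targets and 10 ATF4-CHOP genes were higher, and 9 regulators were lower. Larger changes came with the choice of probe set and the fold. With the probe set of largest absolute difference, *Hif1a* differed by 0.52, *Pdk1* by 2.49 and *Slc2a1* by 0.40, the difference of *Hif1a* from the median of its targets shrank to -0.31, and 11 HIF pathway regulators were higher. *Slc2a1* also differed by 0.40 without the _s_at, _x_at and _a_at probe sets, where 4 glycolytic targets were higher, of the 11 then measured. When 1 probe set past the fold was enough, 1 target was lower and 11 of the 25 regulators were higher, against 24.6% of all genes higher and 22.0% lower. At 2-fold, 3 of 9 targets, 2 of 25 regulators, 3 of 17 glycolytic targets and 8 of 48 other hypoxia-induced genes were higher. Of these lists 1 regulator and 0 other hypoxia-induced genes were lower. Over all named genes 4.61% were higher and 3.76% lower at 2-fold. Of the ATF4-CHOP genes, 7 were higher without the _s_at, _x_at and _a_at probe sets (13 then measured) and 5 at 2-fold, and 0 to 3 were lower over the alternatives. At 2-fold, 1 fibroblast marker and 0 pluripotency markers were higher, and 0 of either list were lower. Dim signal limits *Vegfa*, whose difference ran from 1.20 to 1.70, and *Arnt2*. No paired analysis was possible because each group holds 1 array, and for the same reason no replicate could be left out.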

Other observations

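Relatives of the members, a set of families chosen after the data were seen, ran with the member in some cases and not in others. Of the pyruvate dehydrogenase kinases, *Pdk4* was 16.8-fold higher in G9a-KO, at 2.15 in G9a-KO ESCs and -1.92 in WT ESCs by its single probe set, next to -0.23 for *Pdk1*. *Pdk3* differed by 0.36, and *Pdk2* was dimmer than the array median in G9a-KO and in WT. *Pdk4* in WT was only slightly above that median, so its fold is not exact. Among the *Ndrg* genes, *Ndrg2* (1.15) and *Ndrg3* (0.60) were higher beside *Ndrg1*, whereas *Ndrg4* was 2.97-fold lower, at 0.80 in G9a-KO and 2.37 in WT, and its second probe set gave -1.69.

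*Ero1b*, the paralog of *Ero1a*, was 1.58-fold higher, with 0.41 in G9a-KO and -0.25 in WT, and its probe sets ranged from 0.12 to 0.66. Among the ligands related to *Vegfa*, *Vegfb* (-0.085) and *Vegfc* (-0.33) stayed within 1.3-fold, *Pgf* was lower (-0.96) and *Vegfd*, a dim gene, was higher like *Vegfa* (0.61, with probe sets from 0.61 to 1.45). The neuronal glucose transporter gene *Slc2a3* differed by 0.22 by its brightest probe set, and its 4 probe sets ranged from 0.20 to 1.80.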
